A study of Homo sapiens with 8 samples.

Results

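The enzymes that make deoxynucleotides, the building blocks of DNA, were followed through 4 treatments of A549 cells, an established human lung adenocarcinoma line. The set holds 9 genes of the 60624 in the count files: RRM1, RRM2, RRM2B, TYMS, TK1, DCK, DTYMK, DUT and CTPS1. They were chosen from measured values, namely the low RRM2 count in the cells given both compounds, so every comparison that uses those libraries is given below as a description, with no p-value for a gene and with counts from which nothing is read. All 9 passed the filter on low counts, which kept 18661 genes.

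The RNA was sequenced to see whether more splicing errors accompany the joint effect of 2 compounds that act on splicing, and only gene counts are used here. Indisulam directs the splicing factor RBM39 to degradation, and SPHINX31 inhibits SRPK1, a kinase that phosphorylates SR splicing factors. The 4 groups, all of A549 cells in RPMI medium with serum, were untreated, indisulam alone, SPHINX31 alone, and the combination of indisulam and SPHINX31. For this experiment the published methods state 0.5 μM indisulam and 5 μM SPHINX31 over 24 h, whereas the sample labels state 2 μM indisulam and 18 h for every library, the untreated ones included. Each group had 2 libraries, described as technical replicates of a single cell line, so the p-values measure only the spread between such duplicates.

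Between 51727369 and 63186989 reads were counted on genes per library, with a median of 57337791. Each of the 9 genes had between 1358 and 12500 counts in every library. The 5 epithelial markers KRT8, KRT18, KRT19, EPCAM and CDH1 were all measured, and their summed level was 8242 to 8288 CPM (reads of a gene per 1000000 counted reads) in untreated cells, 7765 to 7969 with indisulam, 7035 to 7226 with SPHINX31 and 7263 to 7422 in the combination. Of 6 markers of blood, vessel, stromal and liver cells, 3 passed the filter, CD3E was at 0 in all libraries, and their sum stayed between 5.64 and 6.90 CPM. The part of the epithelial difference in the results below was not tested. RBM39 mRNA was higher with indisulam (log2 fold change 1.22), and SRPK1 mRNA was lower (-0.33). Neither transcript passed the test with SPHINX31.

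Ribonucleotide reductase turns ribonucleotides into deoxynucleotides and is the rate-limiting step of their synthesis. Its large subunit is RRM1, and its small subunit is either RRM2, which cycling cells make in S phase, or RRM2B, which p53 induces and which also serves resting cells. The thymidine branch then uses DUT, which hydrolyses dUTP and so supplies dUMP, TYMS, which methylates dUMP to dTMP, TK1, which salvages thymidine, and DTYMK, which phosphorylates dTMP. DCK salvages deoxycytidine, and CTPS1 makes CTP from UTP. Several of these genes are known to be switched on as cells enter S phase, and in tumour cells many drugs act on them.

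The promoters of the 4 genes that were lowest in the combination relative to untreated cells are shown, with CCAAT boxes and E2F sites marked. E2F sites are known from S-phase genes, whereas CCAAT boxes occur in promoters of many kinds. RefSeq windows on GRCh38.p14 were found for 8 of the 9 genes, all but RRM2B. Each line gives the 250 bases before the RefSeq transcription start that is also the start of the canonical GENCODE transcript, 5′ to 3′ on the gene's own strand, and capitals mark a CCAAT box (CCAAT, or ATTGG where it lies on the other strand) or an E2F site. The marked elements do not overlap each other. The windows are chr2:10122489-10122738 on the plus strand for RRM2, chr18:657403-657652 on the plus strand for TYMS, chr17:78187053-78187302 on the minus strand for TK1 and chr2:241686816-241687065 on the minus strand for DTYMK.
RRM2: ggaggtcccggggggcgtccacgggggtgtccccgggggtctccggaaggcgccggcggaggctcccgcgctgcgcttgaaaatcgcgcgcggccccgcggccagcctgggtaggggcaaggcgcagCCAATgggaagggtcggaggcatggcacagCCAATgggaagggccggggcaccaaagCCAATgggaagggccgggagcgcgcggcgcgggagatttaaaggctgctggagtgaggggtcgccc
TYMS: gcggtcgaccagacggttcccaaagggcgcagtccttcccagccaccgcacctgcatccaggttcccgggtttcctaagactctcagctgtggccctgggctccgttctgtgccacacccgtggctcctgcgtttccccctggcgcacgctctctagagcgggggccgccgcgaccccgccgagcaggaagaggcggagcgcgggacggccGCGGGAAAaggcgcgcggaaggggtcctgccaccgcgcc
TK1: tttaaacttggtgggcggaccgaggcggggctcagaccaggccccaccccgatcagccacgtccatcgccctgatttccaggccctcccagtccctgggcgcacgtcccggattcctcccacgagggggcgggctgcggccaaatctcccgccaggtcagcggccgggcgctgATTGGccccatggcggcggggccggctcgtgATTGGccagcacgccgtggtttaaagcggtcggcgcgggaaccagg
DTYMK: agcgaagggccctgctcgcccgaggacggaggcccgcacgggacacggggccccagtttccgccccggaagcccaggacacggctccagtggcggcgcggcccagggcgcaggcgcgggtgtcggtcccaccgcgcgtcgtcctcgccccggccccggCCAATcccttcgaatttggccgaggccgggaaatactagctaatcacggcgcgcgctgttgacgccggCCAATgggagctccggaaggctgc

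The RRM2 window held 3 CCAAT boxes, 123, 93 and 66 bases before the start. TK1 held 2, both on the other strand, 77 and 46 bases before the start, and DTYMK held 2, at 92 and 24 bases. The TYMS window held no CCAAT box and 1 E2F site on the other strand, 39 bases before the start. Of 34943 RefSeq windows of the same length, read on both strands, 32.0% held at least 1 CCAAT box, 9.54% held 2 or more and 2.93% held 3 or more. The E2F site was searched as TTTCCCGC, TTTCGCGC, TTTGCCGC or TTTGGCGC and stood in 2.77% of windows. RRM1, whose RefSeq start at 4094685 differs from the canonical GENCODE start at 4094799, held 1 CCAAT box, and DCK, DUT and CTPS1 held neither element. The GC box GGGCGG, present in 42.5% of windows, was found in RRM1, TK1, DCK, DTYMK, DUT and CTPS1 but not in RRM2 or TYMS. TATAAA, in 10.8% of windows, was in none of the 8. The letters TTTGAA or TTCGAA, which mark the cell cycle homology region in some promoters and stood in 14.4% of windows, were found in RRM1 and DTYMK. These matches are descriptions of letters in a window, and no measurement here addresses binding.

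Positions are on GRCh38 with GENCODE release 44. RRM2 (ENSG00000171848) lies on chromosome 2 at 10120698 to 10211725, and its canonical transcript has 10 exons. RRM1 (ENSG00000167325) lies on chromosome 11 at 4094707 to 4138932, and RRM2B (ENSG00000048392) on chromosome 8 at 102204502 to 102238961. TYMS (ENSG00000176890) lies on chromosome 18 at 657653 to 673578, TK1 (ENSG00000167900) on chromosome 17 at 78174091 to 78187233, and DTYMK (ENSG00000168393) on chromosome 2 at 241675747 to 241686944. DUT (ENSG00000128951) lies on chromosome 15 at 48331011 to 48343373. DCK (ENSG00000156136) lies on chromosome 4 at 70992538 to 71030914, and CTPS1 (ENSG00000171793) on chromosome 1 at 40979300 to 41012565. All are protein-coding, and the values are counts over whole genes, which do not resolve exons.

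RRM2, the value that chose the set, stood at 202 and 205 CPM in the untreated libraries. It stood at 160 and 161 CPM with indisulam, at 167 and 192 CPM with SPHINX31, and at 99.5 and 103 CPM in the combination. The 4 groups did not overlap, and the combination was the lowest. Relative to untreated cells the RRM2 level in the combination was 0.497 times as high (log2 fold change -1.01, 95% interval -1.14 to -0.88), which is given with no test. CPM are on TMM-adjusted library sizes, and all fold changes and intervals come from 1 fit to the 8 libraries with edgeR's quasi-likelihood method. In bulk RNA a change in the share of cells in S phase and a change in the amount of a transcript per cell cannot be told apart.

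With indisulam and in the combination the other subunits did not fall as RRM2 did. With SPHINX31 the libraries of both RRM1 and RRM2 lay below the untreated ones, and neither gene passed the test. RRM1 was at 140 and 143 CPM in untreated cells, 151 and 145 CPM with indisulam, 114 and 134 CPM with SPHINX31, and 132 and 137 CPM in the combination. RRM2B was at 59.5 and 61.3 CPM in untreated cells, 65.9 and 67.3 CPM with indisulam, 60.4 and 69.4 CPM with SPHINX31, and 67.4 and 73.4 CPM in the combination. For RRM2B the SPHINX31 range overlapped both the untreated and the combination range, and for RRM1 the SPHINX31 and combination ranges overlapped. In both genes the SPHINX31 libraries differed more from each other than the libraries of any other group, and replicate 1 was the lower.

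Per kilobase of canonical transcript, the ratio of RRM2 to RRM1 was 1.39 in both untreated libraries, 1.02 and 1.07 with indisulam, 1.41 and 1.38 with SPHINX31, and 0.726 and 0.724 in the combination. On this scale, which takes 1 transcript length per gene, RRM2 was the higher of the pair in untreated, indisulam and SPHINX31 libraries. RRM1 was the higher in the combination libraries. RRM2B made up 16.7% and 16.9% of the small-subunit transcripts in untreated cells, 21.97% and 22.21% with indisulam, 19.8% in both SPHINX31 libraries, and 31.6% and 32.7% in the combination. The 4 groups did not overlap in this share. These ratios contain the RRM2 values that chose the set and carry no test.

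The difference between indisulam and untreated cells does not contain the combination values, although the combination libraries enter the shared estimate of the spread. It lowered RRM2 and 3 thymidine enzymes, TYMS, TK1 and DTYMK, together with CTPS1, and raised DUT and DCK. DTYMK showed the largest change of the 9 and fell by 42.95% against untreated cells. In all, 7 of the 9 genes passed an adjusted p of 0.05, 2 of them higher and 5 lower, in a comparison in which 43.7% of all tested genes passed, 20.1% higher and 23.5% lower. Their median log2 fold change was -0.33, against -0.00414 over all tested genes.

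Within ribonucleotide reductase, RRM2 fell by 21.3% with indisulam (log2 fold change -0.35 ± 0.06 SE, adjusted p = 0.00043 by the quasi-likelihood test of edgeR, adjusted after Benjamini and Hochberg, with 2 libraries a group, as for all adjusted p-values below). The untreated libraries of this comparison are those against which the low RRM2 of the combination was read. RRM1 did not pass (0.06, 95% interval -0.08 to 0.21, adjusted p = 0.447 in edgeR). RRM2B did not pass either (0.14, interval -0.0048 to 0.29, adjusted p = 0.108 in edgeR). It passed, at an adjusted p of 0.027 in edgeR, when only the untreated and indisulam libraries were fitted.

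In the thymidine branch, DTYMK stood at 49.7 and 50.1 CPM in untreated cells and at 27.9 and 29.0 CPM with indisulam. It fell by 0.81 on the log2 scale (SE 0.06, adjusted p = 1.63e-07 in edgeR). TYMS stood at 177 and 182 CPM in untreated cells and at 130 and 131 CPM with indisulam, and it fell by 0.46 (SE 0.06, adjusted p = 1.78e-05 in edgeR). For neither gene did the libraries of the 2 groups overlap, nor did they for any other gene of the set. This includes RRM1 and RRM2B, which did not pass, and the share of all tested genes that separated between these groups was not counted.

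TK1 stood at 191 and 186 CPM in untreated cells and at 142 and 158 CPM with indisulam, and it fell by 0.33 (SE 0.05, adjusted p = 0.00027 in edgeR). DUT moved the other way, from 60.3 and 59.0 CPM to 73.2 and 77.3 CPM. It rose by 0.33 on the log2 scale (SE 0.05, adjusted p = 0.00021 in edgeR), while TYMS, which uses its product, fell.

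For cytidine, CTPS1 stood at 74.5 and 79.2 CPM in untreated cells and at 62.0 and 59.3 CPM with indisulam, and it fell by 0.34 (SE 0.06, adjusted p = 0.00024 in edgeR). DCK rose from 27.96 and 29.49 CPM to 31.5 and 34.3 CPM (log2 fold change 0.19, SE 0.07, adjusted p = 0.031 in edgeR). The DCK call was lost when untreated replicate 1 (adjusted p = 0.198 in edgeR), untreated replicate 2 (0.0605) or indisulam replicate 2 (0.184) was left out. The other 6 calls held in all 16 alternative settings.

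SPHINX31 alone gave smaller differences in the set. TK1, TYMS and DTYMK passed, all lower, so 3 of 9 genes were called where 8.61% of all tested genes passed, 4.94% higher and 3.67% lower. The median log2 fold change was -0.18 over the 9 genes and -0.00637 over all tested genes. Leaving out untreated replicate 1, untreated replicate 2 or SPHINX31 replicate 1 left 0 of the 9 genes past the threshold in edgeR, where each of the 3 kept its direction.

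TK1 stood at 157 and 160 CPM with SPHINX31 and fell by 16.1% (log2 fold change -0.25, SE 0.05, adjusted p = 0.0111 in edgeR). TYMS stood at 145 and 160 CPM and fell by 15.2% (log2 fold change -0.24, SE 0.05, adjusted p = 0.017 in edgeR). DTYMK stood at 42.6 and 43.9 CPM and fell by 13.3% (log2 fold change -0.21, SE 0.06, adjusted p = 0.0343 in edgeR), and its call was also lost with scaling by total counts alone (0.0644), with every gene of at least 1 count (0.0621), with a replicate block (0.0525) and without SPHINX31 replicate 2 (0.051). In each of the 3 genes both SPHINX31 libraries were below both untreated libraries. The same held for RRM1, RRM2 and DUT, which did not pass, and the share of all tested genes separated in this way was not counted.

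RRM2 did not pass with SPHINX31 (log2 fold change -0.18, 95% interval -0.31 to -0.05, adjusted p = 0.0747 in edgeR). RRM1 did not pass either (-0.19, interval -0.34 to -0.05, adjusted p = 0.0848 in edgeR). With every gene of at least 1 count both passed, at adjusted p = 0.0376 for RRM2 and 0.0276 for RRM1 in edgeR. They also passed with a replicate block that exchanged the indisulam numbers, chosen after seeing the data (0.0257 and 0.0202 in edgeR). Without SPHINX31 replicate 2, the higher of the pair, the log2 fold changes were -0.29 for RRM2 and -0.32 for RRM1. These were the largest falls with a library left out, and the smallest was -0.09 for either gene. Each gene stayed short of the threshold in 13 of 16 alternative settings.

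For the remaining 4 genes the SPHINX31 difference was close to 0. RRM2B had a log2 fold change of 0.10 (interval -0.04 to 0.25), DCK of -0.07 (-0.22 to 0.07) and DUT of -0.07 (-0.19 to 0.04). CTPS1 had 75.5 and 79.4 CPM with SPHINX31, and its log2 fold change was 0.01 (-0.11 to 0.13). The CTPS1 and DCK ranges overlapped those of untreated cells, as did that of RRM2B, whereas both DUT libraries lay below the untreated ones.

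In the combination, described with no p-value for a gene, the log2 fold change against untreated cells was -1.01 for RRM2, -1.05 for DTYMK, -0.79 for TYMS, -0.63 for TK1 and -0.54 for CTPS1. It was 0.22 for RRM2B, 0.20 for DCK, 0.20 for DUT and -0.07 for RRM1. DTYMK therefore showed a fold as low as that of the gene that chose the set, with 24.5 and 23.7 CPM in the 2 libraries. At the threshold used above the fit called 8 of the 9 genes, RRM2 included, 3 higher and 5 lower, from which nothing is read because these values chose the set, where 50% of all tested genes were called, 23.8% higher and 26.3% lower.

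**Figure D1:**
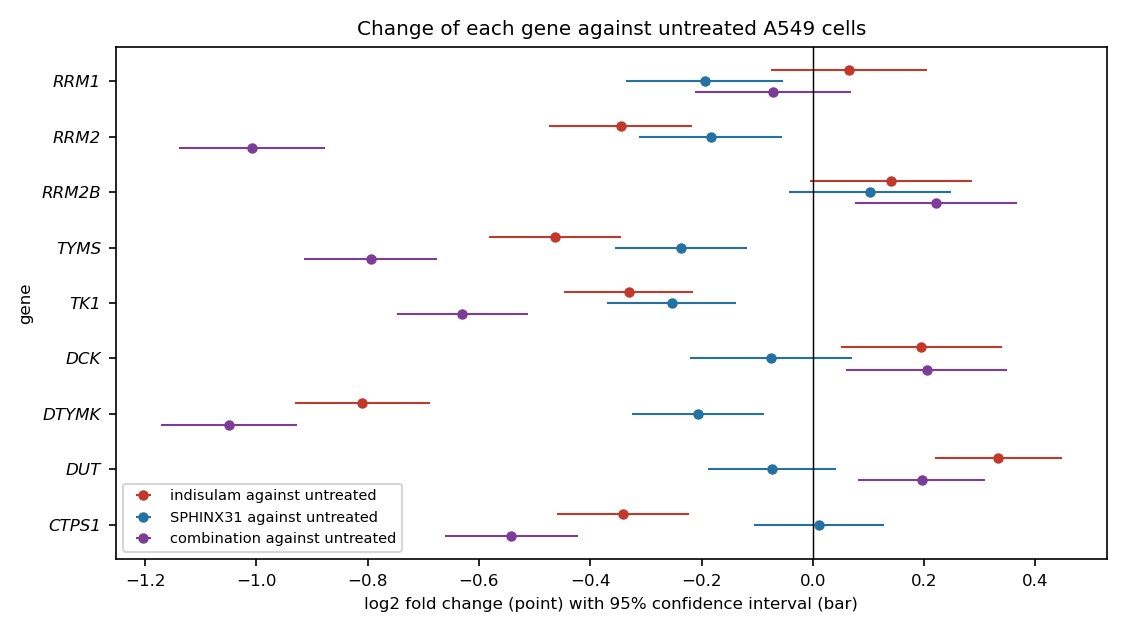
Log2 fold change of each gene against untreated cells for indisulam, SPHINX31 and the combination; points are estimates from 1 edgeR fit to 8 libraries and bars 95% confidence intervals, and the 3 comparisons share the untreated libraries. RRM2 and DTYMK reached -1.01 and -1.05 in the combination, while RRM1 lay at -0.07 there and DUT and DCK lay at 0.20.

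Set against each single compound, the combination libraries differed as follows. Against indisulam the log2 fold change was -0.66 for RRM2 (95% interval -0.79 to -0.53), -0.33 for TYMS, -0.30 for TK1, -0.24 for DTYMK and -0.20 for CTPS1. It was 0.01 for DCK, 0.08 for RRM2B, -0.14 for RRM1 and -0.14 for DUT. The fit called 5 of 9 genes, all lower, where 7.5% of all genes were called, 3.17% higher and 4.32% lower, and 2 or 3 genes were called without any 1 untreated, indisulam or combination library. Without combination replicate 2 the count was 2.

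Against SPHINX31 the log2 fold change was -0.84 for DTYMK, -0.82 for RRM2, -0.56 for TYMS, -0.55 for CTPS1 and -0.38 for TK1. DCK (0.28) and DUT (0.27) were higher, and RRM1 and RRM2B were both at 0.12. The fit called 7 genes, 2 higher and 5 lower, where 49.9% of all genes were called, 23.4% higher and 26.5% lower. Both comparisons share the combination libraries with the rule that chose the set, so the counts support nothing.

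The departure from the sum is what remains of the combination's log2 fold change after those of indisulam and SPHINX31 are taken off. For RRM2 it was -0.48 (95% interval -0.66 to -0.30), that is, a level 0.717 times that given by the product of the single changes. For CTPS1 it was -0.21 (-0.38 to -0.04). For the other 7 genes the interval held 0, with estimates of -0.09 for TYMS, -0.05 for TK1, -0.03 for DTYMK, -0.06 for DUT, 0.08 for DCK, 0.06 for RRM1 and -0.02 for RRM2B. DTYMK and RRM2 had like folds in the combination, with departures of -0.03 and -0.48. Every departure contains the combination libraries, and the low RRM2 count in them chose the set. That choice favours a negative departure for RRM2. The intervals are therefore descriptions, and nothing is read from which of them held 0 or from the contrast between RRM2 and DTYMK. Across all genes, 0 of 18661 departures (0%) passed an adjusted p of 0.05 in edgeR, 1583 had an unadjusted p under 0.05, and DESeq2 called 32. The departure of RRM2 was called in 3 of 15 alternative settings, DESeq2 included. Nothing is read from those calls, because the low RRM2 count chose the set.

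Levels of different genes were compared per kilobase of canonical transcript. In untreated cells the order of mean levels was TK1 (132 CPM per kilobase), TYMS (111), RRM2 (62.5), DTYMK (47.5), RRM1 (45.1), DUT (27.9), CTPS1 (27.1), RRM2B (12.7) and DCK (11.5). Only DUT and CTPS1 overlapped among neighbours in this order. Averaged over all 8 libraries, the levels ranged from the 73.3rd percentile for DCK to the 96.9th for TK1 among 18596 tested genes with a length.

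TK1 and TYMS led, and RRM2B and DCK closed the order, in all 4 groups. With indisulam DTYMK, which ranked above RRM1 and DUT in untreated cells, stood at 27.1 CPM per kilobase, below RRM1 (47.1) and DUT (35.1). With SPHINX31 the order was TK1 (111), TYMS (94.5), RRM2 (55.1), DTYMK (41.1) and RRM1 (39.4), and DTYMK and RRM1 overlapped, as did CTPS1 (27.3) and DUT (26.5). In the combination RRM2 stood at 31.1 CPM per kilobase, overlapping DUT (31.9) and below RRM1 (42.9).

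Reads that overlapping genes or pseudogenes could share were looked at for each gene. ENOSF1, which lies over TYMS on the opposite strand, was at 40.2 and 41.6 CPM in untreated cells, 23.5 and 19.4 CPM with indisulam, 33.9 and 36.6 CPM with SPHINX31, and 23.97 and 19.61 CPM in the combination. The antisense TYMSOS stood between 1.61 and 3.12 CPM. The strand setting of the counting is not given in the sources used here, so the part of ENOSF1 reads in the TYMS values was not tested. DCK overlaps MOB1B on the same strand, and MOB1B stood between 26.8 and 30.7 CPM in all libraries. RRM1-AS1, DUT-AS1 and the pseudogene RRM2P3 were each under 1 CPM in every library.

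The rest of the nucleotide pathway was read from 5 lists with 47 genes, all of which passed the filter. With indisulam 32 of the 47 genes passed the test, 14 higher and 18 lower, beside 43.7% of all tested genes, 20.1% higher and 23.5% lower. With SPHINX31 3 of the 47 passed, 1 higher and 2 lower, beside 8.61% of all tested genes, 4.94% higher and 3.67% lower. The counts of single lists below stand beside these same shares.

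On the thymidylate and folate route, which supplies TYMS with its methyl donor, 4 of 6 genes fell and 1 rose with indisulam, beside 23.5% and 20.1% of all tested genes, and the median log2 fold change was -0.48. SHMT1, the cytosolic serine hydroxymethyltransferase, fell by 0.93, its mitochondrial form SHMT2 by 0.55, and MTHFD2, a mitochondrial folate enzyme, by 0.58. DCTD, which makes dUMP from dCMP, was higher (0.14). With SPHINX31 0 of the 6 passed in edgeR, 3 had an unadjusted p under 0.05, DESeq2 called 1, and the median was -0.06. Under 4 alternative settings 1 or 2 of them did, the count of 2 being that without SPHINX31 replicate 2.

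Among 11 further salvage enzymes and nucleotide kinases 3 rose and 2 fell with indisulam, beside 20.1% and 23.5% of all genes, with a median of 0.05. The mitochondrial thymidine kinase TK2 fell by 0.38 and the uridine-cytidine kinase UCK1 by 0.27, while CMPK2 (0.37), the deoxyguanosine kinase DGUOK (0.31) and the guanylate kinase GUK1 (0.23) rose. With SPHINX31 0 passed in edgeR and in DESeq2, 3 had an unadjusted p under 0.05 in edgeR, and the median was -0.08. The indisulam count of 5 was 3 without untreated replicate 1, without untreated replicate 2 or without indisulam replicate 2. In de novo pyrimidine synthesis CAD, which carries out its first steps, fell by 0.53 with indisulam, DHODH fell by 0.29, and UMPS, which makes UMP, rose (0.27). CTPS2 did not pass (-0.15). With SPHINX31 0 of the 4 passed in edgeR and in DESeq2, 1 had an unadjusted p under 0.05 in edgeR, and the median was -0.03.

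Of 13 de novo purine genes 4 rose and 6 fell with indisulam, beside 20.1% and 23.5% of all genes (median -0.05), among them GART (-0.34), ADSL (-0.31) and ADSS1 (0.39). With SPHINX31 1 gene passed in edgeR, PRPS1, which makes the ribose donor (-0.19), and the median was -0.08. The SPHINX31 count was 2 in DESeq2, 2 with every gene of at least 1 count, 2 with a replicate block that exchanged the indisulam numbers, and 3 without SPHINX31 replicate 2. The indisulam count of 10 was 6 without untreated replicate 2 or without indisulam replicate 1, and the PRPS1 call was lost without untreated replicate 1, untreated replicate 2 or SPHINX31 replicate 1. Of 13 genes that break down or clean the nucleotide pool 5 rose and 4 fell with indisulam, beside the same shares of all genes (median -0.04). SAMHD1, which hydrolyses dNTPs, was higher (0.70), and the mitochondrial nucleotidase NT5M (-0.98) and DPYD (-0.84), which degrades pyrimidines, were lower. With SPHINX31 UPP1, the uridine phosphorylase, rose (0.60) and DCTPP1 fell by 0.27, with a median of -0.02. The indisulam count of 9 was 5 without untreated replicate 1, and the SPHINX31 count of 2 was 1 without any 1 of untreated replicate 1, untreated replicate 2 and SPHINX31 replicate 1.

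Known S-phase and p53 target genes were set beside RRM2 and RRM2B. Of 19 S-phase and E2F target genes 7 rose and 4 fell with indisulam, beside 20.1% and 23.5% of all tested genes (median 0.11). In the same comparison RRM2, TYMS, TK1, DTYMK and CTPS1 fell, DUT and DCK rose, and RRM1 and RRM2B did not pass. The polymerase subunit POLA1 fell by 1.24 and CDC45, a part of the replicative helicase, by 0.77, while GINS1, another part of it, rose (0.69). With SPHINX31 11 of the 19 fell and 0 rose, beside 3.67% and 4.94% of all tested genes (median -0.25), among them CCNE2 (-0.49), CCNE1 (-0.37) and the helicase subunit MCM4 (-0.36). The count was 1 without untreated replicate 1, 1 without untreated replicate 2 and 2 without SPHINX31 replicate 1. It was 7 without either combination library and 7 with scaling by total counts alone.

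Of 16 p53 target genes 3 rose and 7 fell with indisulam, beside 20.1% and 23.5% of all tested genes (median -0.06), with XPC (-0.75), DDB2 (-0.57) and FDXR (-0.53) the lowest. With SPHINX31 6 rose and 1 fell, beside 4.94% and 3.67% (median 0.14), with GDF15 (1.25), BBC3 (0.47) and CDKN1A (0.44), an inhibitor of cyclin-dependent kinases, the highest. RRM2B, itself a p53 target, passed in neither comparison. GDF15, BBC3 and CDKN1A did not pass with indisulam, at log2 fold changes of 0.06, -0.27 and 0.11. The indisulam count of 10 was 5 without untreated replicate 1, and the SPHINX31 count of 7 was 3 without untreated replicate 1, untreated replicate 2 or SPHINX31 replicate 1.

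The genes most like RRM2 over the 8 libraries were found by the root mean square difference of log2 CPM, each gene being centred on its untreated mean, among 9904 genes with a mean log2 CPM of at least 3. The closest were C5 (0.0754), SMC4 (0.0947), SLC37A4 (0.0954), CIP2A (0.0983) and PAQR4 (0.1), against a median of 0.555 over the genes compared. SMC4 is a condensin subunit, C5 a complement protein, and SLC37A4 the glucose-6-phosphate transporter of the endoplasmic reticulum. SMC4 stood at 473 and 509 CPM in untreated cells and at 255 and 259 CPM in the combination.

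Of the synthesis genes, TYMS lay nearest to RRM2 by this measure (0.126, rank 16), then TK1 (0.201, rank 179), DTYMK (0.238, rank 379) and CTPS1 (0.258, rank 552). RRM1 (0.512, rank 4001) lay near the median of all genes compared, and DCK (0.667), RRM2B (0.676) and DUT (0.695) lay beyond it. Likeness is over the same 8 libraries that chose RRM2 and is a description with no test.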

How the data were processed

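RNA was sequenced from 8 A549 libraries, 2 technical replicates for each of 4 treatments. Strand-specific libraries from poly(A) RNA were read as paired ends. The submitters' processing notes name HISAT2 2.2.1, HTSeq and GRCh38; the strand setting and annotation of the counting are not given in the sources used here. The authors deposited raw read counts per Ensembl gene, without normalization, and also unassigned reads, which were left out of library sizes. Between 83.0% and 86.0% of recorded reads were assigned to a gene.

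Groups follow the treatment named in the labels. Counts were fitted in R 4.3.3 with edgeR 4.0.16 (filterByExpr, TMM, quasi-likelihood test, all 8 libraries, 4 residual degrees of freedom) with Benjamini-Hochberg adjustment over 18661 genes, and genes were called at 0.05. The fit was first tested on simulated data. Symbols, positions and lengths came from GENCODE release 44, promoter windows from RefSeq. Beside the 9 genes, those named are the 3 largest called changes per list and comparison, RBM39, SRPK1, genes overlapping a member and the 5 genes most like RRM2; DCTD, UCK1, GUK1 and CTPS2 were named after their values were seen, and 1 list gene is not reported here by name. The members and lists were chosen with earlier results of these data known. Alternatives were RLE size factors, total counts alone, DESeq2 1.42.0, filters of at least 1 count and of at least 10 counts in every library, only the groups compared, a replicate block and leaving out each library; a block with the indisulam numbers exchanged was added after seeing the data.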

Additional observations from a re-analysis of the deposited data

How the results depend on the processing

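Of 720 values of the 9 genes' log2 fold changes under alternatives, 669 stayed on their side of the threshold, 39 fell short of it, 12 newly passed it, and none that had passed changed sign. Of the 669, 5 changed sign, belonging to 3 differences that passed no test, as did 4 values of 3 departures from the sum, each with a library left out. The count of the 9 genes past the threshold was 7 with indisulam and 6 to 8 with a library left out. With SPHINX31 it was 3, against 0 to 4 with a library left out. For the combination against indisulam it was 5, against 3 with total counts alone, 3 with only the groups compared and 2 to 5 with a library left out. Of the 82 genes on all 7 lists, 53 passed with indisulam (35 to 57 with a library left out) and 21 with SPHINX31 (5 to 29; the low counts were 35 without untreated replicate 1 and, with SPHINX31, 5 without either untreated library and 6 without SPHINX31 replicate 1). Where 1 library of a group is left out, the lone library is assumed to vary like the other groups.

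Replicate numbers were shared between groups. Over 9490 genes the deviations of same-numbered libraries correlated at 0.459 between untreated and SPHINX31, 0.18 between untreated and combination, 0.0836 between indisulam and combination and 0.0205 between SPHINX31 and combination, and at -0.584 and -0.503 between indisulam and untreated or SPHINX31. Since not every pair exceeded 0.1 and no label ties the numbers to a batch, they were not taken as pairs. With the replicate block 7 of the 9 genes passed with indisulam and 2 with SPHINX31. With the block and the indisulam numbers exchanged, chosen after seeing the data, 8 passed with indisulam and 5 with SPHINX31, and over all genes 8952 and 2630 passed, against 8148 and 1606. Over all genes, calls with indisulam were 6629 in DESeq2, and with SPHINX31 2138 with every gene of at least 1 count, and between 482 and 1810 with a library left out. The cause was not tested.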
